A study of Homo sapiens with 6 samples.

Results

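The genes described here are 56 that build, license, fire and follow DNA replication origins and forks, chosen by symbol: the origin recognition complex, the licensing factors, the MCM2-7 helicase and its activators, the replicative polymerases, the sliding clamp and its loader, the factors that process lagging-strand fragments, and fork and chromatin factors that travel with them. Earlier results of these data were known when they were chosen. All 56 were matched by Ensembl identifier to 1 row each among the 60564 gene rows of the count table, and all 56 passed the filter on low counts, among 17006 genes tested. The table holds 6 RNA-seq libraries of A2780, a human ovarian cancer cell line, 3 labelled GPT2si and 3 labelled GPT2sinc. By its title the series asks what GPT2 deficiency does; GPT2 is the mitochondrial alanine aminotransferase. The labels give GPT2si and GPT2sinc as genotypes and do not spell them out. They name no dose, time, target sequence or separate culture, so a p-value here reflects the spread among 6 libraries that may be technical repeats.

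A replication origin is marked by the origin recognition complex (ORC), onto which CDC6 and CDT1 load the ring-shaped MCM2-7 helicase before S phase, a step that geminin (GMNN) blocks later in the cycle. Kinases and loading factors then add CDC45 and the GINS complex to each MCM ring, and the active helicase opens the fork for polymerases alpha, delta and epsilon, which work with the clamp PCNA. Many of these genes are textbook targets of E2F transcription factors and are transcribed mostly around the start of S phase, so in bulk RNA a change in the number of cycling cells and a change in RNA per cell cannot be told apart.

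The libraries held 41931162 to 50882329 counts, and the 56 genes together took 0.358% to 0.384% of all counts in the GPT2sinc libraries and 0.400% to 0.418% in the GPT2si libraries. GPT2 itself was at 236, 229.9 and 219 CPM (counts scaled to a common library size with trimmed-mean factors) in GPT2sinc 1 to 3 and at 93.8, 94.3 and 96.9 CPM in GPT2si 1 to 3, and every GPT2si library was below every GPT2sinc library (log2 fold change −1.26, SE 0.08; adjusted p = 0.000393, edgeR). The keratin genes KRT8 and KRT18 were expressed, while KRT19 was at a mean of 0.35 CPM with GPT2sinc and 0.48 CPM with GPT2si. EPCAM was at a mean of 1.94 and 1.61 CPM, and of the other ovarian carcinoma markers WT1 had no count and MUC16 and PAX8 were near 0. Summed over 7 epithelial markers the level was 57.5 to 60.2 CPM with GPT2sinc and 64.7 to 80.6 CPM with GPT2si; their part in the results was not tested. The 4 endothelial markers summed to at most 0.3 CPM per library. Among the markers of immune, endothelial and stromal cells, CD3E and CDH5 had no count and PTPRC, CD14, PECAM1, VWF and KDR at most 8 counts in any library. CD68 was at a mean of 4.62 CPM with GPT2sinc and 5.75 CPM with GPT2si (adjusted p = 0.502, edgeR), and the fibroblast genes COL1A1, COL1A2 and PDGFRA were expressed in all 6 (summed level of the 5 fibroblast markers 516 to 539 CPM with GPT2sinc and 520.4 to 563 CPM with GPT2si). The other fibroblast markers were low, DCN at a mean of 3.90 CPM with GPT2sinc and 3.96 CPM with GPT2si, and LUM at 0.26 and 0.20 CPM. GPT2si 2 stood apart from the other GPT2si libraries in a way that followed the GC content of transcripts, and GPT2sinc 1 was the lowest library for most members; their values are given below the role groups.

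The replication genes lay slightly higher with GPT2si as a group, but single members seldom passed the test over all genes. Since earlier results were known at the choice of members, their shares beside those of all genes are descriptions. With edgeR's quasi-likelihood test and Benjamini-Hochberg adjustment over the 17006 genes, 1 member, POLE3, rose and 0 fell at an adjusted p under 0.05, where 0.576% of all tested genes were called higher and 0.841% lower. The log2 fold change, GPT2si over GPT2sinc, was above 0 for 45 of the 56 members, against 48.0% of all tested genes, and its median was 0.14, against −0.01 over all tested genes. At an unadjusted p under 0.05, 17 members were higher and 1 lower, where 10.3% of all genes were higher and 9.27% lower. In 21 members all GPT2si libraries lay above all GPT2sinc libraries (14.9% of all genes) and in 1, TICRR, all lay below (13.2% of all genes). The changes were small, from −0.34 for TICRR to 0.53 for POLE3, with a median standard error (SE) of 0.11. In the text on single genes, a pair of values in brackets, such as 0.53 and its SE, is the log2 fold change of GPT2si over GPT2sinc and its error in the edgeR fit.

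**Figure D1:**
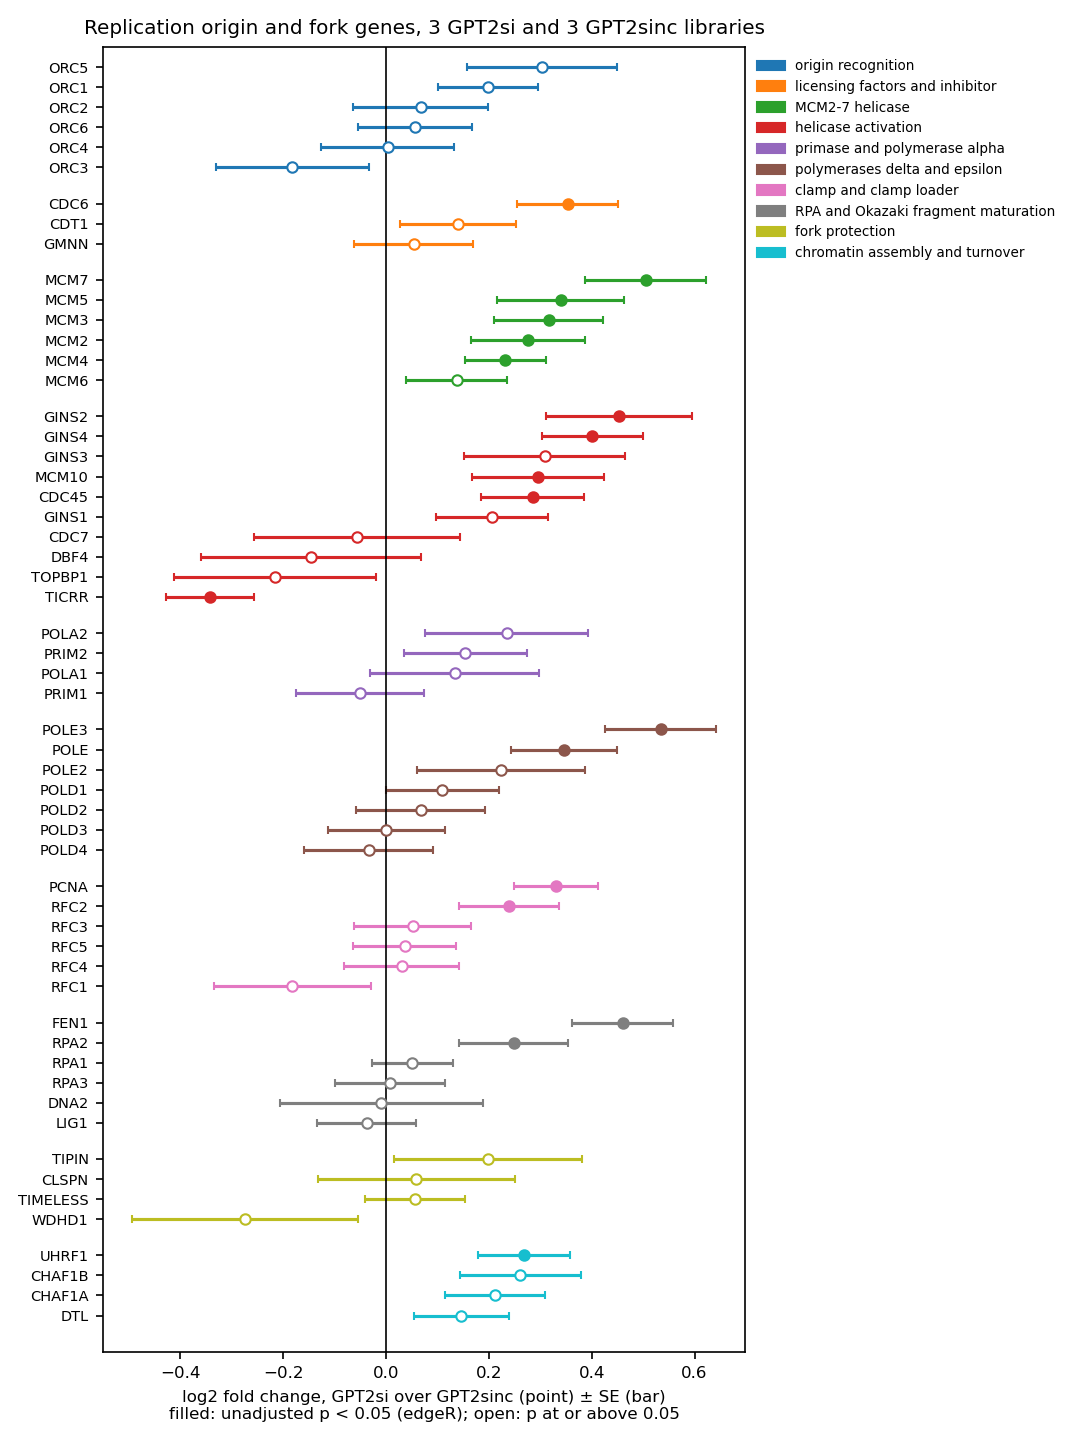
Log2 fold change of each of the 56 genes, GPT2si over GPT2sinc (x axis; bars are SE of the edgeR fit on 3 against 3 libraries), grouped by role (y axis, colours); filled points have an unadjusted p under 0.05. All 6 MCM2-7 genes and all 4 genes of chromatin assembly and turnover lie right of 0, and TICRR is the filled point left of 0.

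The count of calls depended on the method and on 1 library. The DESeq2 Wald test called 6 members higher (3.05% of all genes) and TICRR lower (2.75% of all genes): POLE3, FEN1, MCM7, GINS4, PCNA and CDC6. Without GPT2si 2, edgeR called these 6 and MCM10 higher (2.15% of all genes) and TICRR lower (2.62% of all genes). Without any 1 of the other 5 libraries, 0 members passed in either direction. These fits called 0% to 0.293% of all genes higher and 0.00573% to 0.333% lower. Between 8 and 19 members were higher in them with an unadjusted p under 0.05, and 1 to 3 lower. Of all genes, 5.28% to 11.2% were higher at that p and 5.85% to 11.7% lower. A fit that left out both GPT2sinc 1 and GPT2si 2 was added once the data had been seen; in it the same 7 members were higher (4.39% of all genes) and TICRR lower (4.80% of all genes).

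E2F-type sequence words, which the choice of members did not use, occurred in the promoters of many of these genes. RefSeq promoter windows of GRCh38.p14, from 250 bases before to 50 after an annotated start site, were found for 49 of the 56 genes (66 windows). E2F-type words were searched as exact matches of TTTCCCGC, TTTGGCGC, TTTCGCGC or TTTGCCGC on either strand; TTTGGCGC and TTTCGCGC can overlap on opposite strands. They occurred in 25 of the 66 windows (37.9%), against 3.31% of all 35116 windows of that length, and in 24 of the 49 genes (49.0%), against 3.99% of all 27305 genes in the table. In the bases before the start alone they were in 27.3% of the members' windows and 2.79% of all windows. The word CCAAT was in 54.5% of the members' windows and 34.6% of all, and TTTGAA in 3.03% and 15.2%. The following stretches, before the start sites, show the words in capitals as they read on the gene's strand, for genes at an unadjusted p under 0.05 and for MCM6, whose promoter holds a pair of longer forms.
MCM3 (chr6:52284883-52284942, minus strand, −200 to −141 from the start): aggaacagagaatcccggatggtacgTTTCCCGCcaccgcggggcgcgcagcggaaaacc
MCM6 (chr2:135876558-135876621, minus strand, −178 to −115 from the start): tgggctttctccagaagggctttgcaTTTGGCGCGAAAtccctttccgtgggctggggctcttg
MCM6 (chr2:135876496-135876559, minus strand, −116 to −53 from the start): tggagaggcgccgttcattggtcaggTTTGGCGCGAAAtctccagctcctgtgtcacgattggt
MCM7 (chr7:100101551-100101610, minus strand, −213 to −154 from the start): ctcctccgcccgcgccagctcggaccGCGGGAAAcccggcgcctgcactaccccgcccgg
MCM7 (chr7:100101398-100101432, minus strand, −35 to −1 from the start): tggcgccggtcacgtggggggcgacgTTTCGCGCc
GINS2 (chr16:85688955-85689011, minus strand, −57 to −1 from the start): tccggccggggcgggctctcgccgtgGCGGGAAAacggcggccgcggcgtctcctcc
POLE (chr12:132687343-132687386, minus strand, −44 to −1 from the start): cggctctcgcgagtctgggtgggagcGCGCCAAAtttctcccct
PCNA (chr20:5126648-5126707, minus strand, −85 to −26 from the start): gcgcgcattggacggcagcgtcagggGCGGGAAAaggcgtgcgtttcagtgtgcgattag
UHRF1 (chr19:4909461-4909500, plus strand, −40 to −1 from the start): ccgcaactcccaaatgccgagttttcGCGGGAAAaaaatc
In both MCM6 stretches a TTTGGCGC on the gene's strand overlaps a TTTCGCGC on the other strand. GINS2, PCNA, UHRF1 and the farther MCM7 stretch hold TTTCCCGC on the other strand, POLE holds TTTGGCGC there, MCM3 holds TTTCCCGC on its own strand, and the nearer MCM7 stretch holds TTTCGCGC. The matches of CDC6 and MCM2 lie after the start and are not printed. Also not printed are a TTTCGCGC of UHRF1 at −160 from another annotated start and a TTTCGCGC of MCM3 at −4, which runs across the start. A match describes letters and does not show a bound factor. The 24 genes with a match had a median log2 fold change of 0.20, with 8 of them higher with an unadjusted p under 0.05 and 0 lower, and the 25 genes without one a median of 0.07, with 5 higher and 1 lower. Of all tested genes, 10.3% were higher and 9.27% lower at that p. The ranges of the 2 sets overlapped, from −0.22 to 0.50 with a match and from −0.34 to 0.53 without, and the member with the largest rise, POLE3, had no match in its window.

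**Figure D2:**
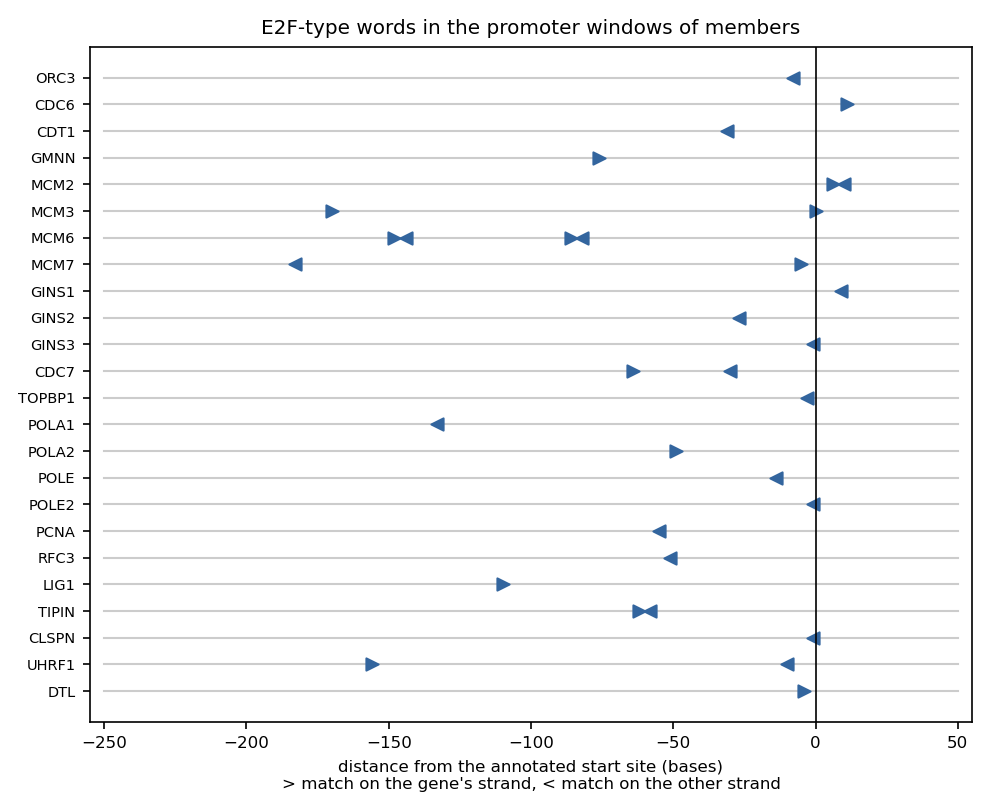
Positions of E2F-type words in the promoter windows of the 24 members that hold one (x axis, bases from the annotated start; y axis, genes; triangles point along the strand of the match). Matches gather near the start; MCM3, MCM6, MCM7 and CDC7 have matches at separate places, and those of UHRF1 come from 2 annotated starts.

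Of the 6 ORC genes, whose proteins bind origin DNA, 0 were at an unadjusted p under 0.05. Of all tested genes, 10.3% were higher and 9.27% lower at that p. ORC1, the ATPase subunit that cycles with S phase, was at 36.1, 37.5 and 34.5 CPM in GPT2sinc 1 to 3 and 41.2, 44.1 and 38.7 CPM in GPT2si 1 to 3. The groups did not overlap, and the difference was small (log2 fold change 0.20, SE 0.10; adjusted p = 0.291, edgeR). ORC5 was at 9.96, 11.3 and 11.8 CPM in GPT2sinc 1 to 3 and 13.4, 11.7 and 15.7 CPM in GPT2si 1 to 3, where GPT2si 2 lay below the highest GPT2sinc library (0.30, SE 0.15). The remaining ORC2, ORC3, ORC4 and ORC6 lay between −0.18 and 0.07, and the order per kilobase of transcript was ORC6 at 13.9, ORC1 at 12.3, ORC2 at 6.88, ORC5 at 6.28, ORC3 at 4.35 and ORC4 at 2.01 CPM, with ORC6 and ORC1, and ORC2 and ORC5, overlapping between libraries.

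Among the licensing factors, CDC6 (ENSG00000094804; chromosome 17, 40287633 to 40304657, plus strand in GENCODE 29 on GRCh38), the ATPase that loads MCM rings, was at 40.9, 47.4 and 45.6 CPM in GPT2sinc 1 to 3 and 59.2, 53.4 and 58.4 CPM in GPT2si 1 to 3. All GPT2si libraries were higher, by 0.35 on the log2 scale (SE 0.10), and this did not pass over all genes (adjusted p = 0.107, edgeR). CDT1, its loading partner, was at 82.2, 85.3 and 90.1 CPM in GPT2sinc 1 to 3 and 87.4, 111 and 85.3 CPM in GPT2si 1 to 3, with overlapping groups and GPT2si 2 far above the rest (0.14, SE 0.11). Geminin, the CDT1 inhibitor, lay at 0.05 (SE 0.12).

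The MCM2-7 genes, which encode the 6 subunits of the helicase ring, all had a positive log2 fold change, a sign that held in all 15 alternatives while the size did not. The median was 0.30, and in 5 of 6 the groups did not overlap and the unadjusted p was under 0.05. Of all tested genes, 14.9% were higher without overlap and 10.3% higher at that p. MCM7 (ENSG00000166508; chromosome 7, 100092728 to 100101940, minus strand) was at 241, 275 and 281 CPM in GPT2sinc 1 to 3 and 357, 444 and 332 CPM in GPT2si 1 to 3. Each GPT2si library was higher than each GPT2sinc library, and GPT2si 2 was highest by far. Its log2 fold change was 0.50 (SE 0.12, 95% interval 0.24 to 0.77), with an adjusted p of 0.0711 by edgeR. It was 0.36 (SE 0.07, adjusted p = 0.0334) without GPT2si 2 and 0.30 (SE 0.06, adjusted p = 0.00945) without both GPT2si 2 and GPT2sinc 1, a smaller difference with a smaller error. MCM7 overlaps AP4M1 on the opposite strand over 392 exonic bases, and the sources used here do not say whether the counting used strand.

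MCM3 was at 111, 135 and 138 CPM in GPT2sinc 1 to 3 and 156, 173 and 149 CPM in GPT2si 1 to 3 (0.32, SE 0.11). MCM5 was at 119.6, 136 and 142 CPM in GPT2sinc 1 to 3 and 160.0, 199 and 145 CPM in GPT2si 1 to 3 (0.34, SE 0.12). MCM2 was at 203, 237 and 241 CPM in GPT2sinc 1 to 3 and 265, 315 and 247 CPM in GPT2si 1 to 3 (0.28, SE 0.11). These 3 subunits showed the same order of libraries, with GPT2sinc 1 lowest and GPT2si 2 highest in each. Without GPT2si 2, MCM2 was at 0.16, MCM3 at 0.24 and MCM5 at 0.19, and without both GPT2si 2 and GPT2sinc 1 they were at 0.09, 0.15 and 0.13. MCM4 was at 166, 185 and 181 CPM in GPT2sinc 1 to 3 and 212, 211 and 203 CPM in GPT2si 1 to 3 (0.23, SE 0.08), with GPT2si 1 and GPT2si 2 nearly level. MCM2 and GINS4 share 1113 and 1159 exonic bases with annotated antisense genes. Adjusted p of MCM2 to MCM5 ran from 0.151 to 0.213 with edgeR. MCM6 was at 85.1 ± 5.99 CPM with GPT2sinc and 93.6 ± 8.62 CPM with GPT2si (SD, n = 3 each; 0.14, SE 0.10), and its groups overlapped.

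The ring holds 1 copy of each subunit, while the RNA levels differed. Per kilobase of the longest GENCODE basic transcript, MCM7 was at 104 CPM, MCM2 at 69.4, MCM4 at 46.2, MCM3 at 44.7, MCM5 at 42.5 and MCM6 at 23.9, as means over 6 libraries. MCM6 lay below all others in every library, MCM2 above MCM3, MCM4 and MCM5 except that its lowest library was just under the highest of MCM5, and MCM3, MCM4 and MCM5 overlapped. A transcript model longer than the one the cells use would lower such a value.

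**Figure D3:**
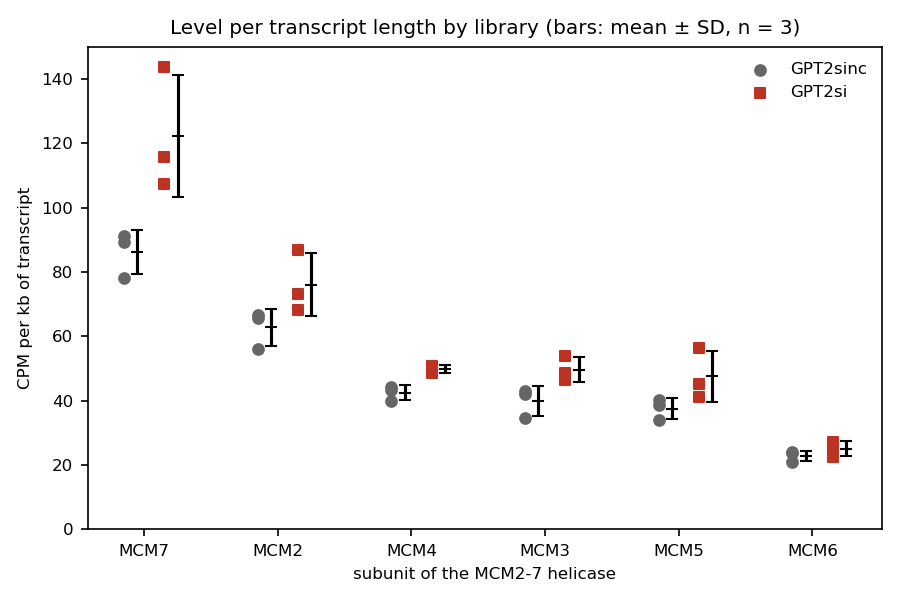
Level of the 6 MCM2-7 genes in CPM per kilobase of transcript (y axis) in each GPT2sinc (circles) and GPT2si (squares) library, with mean ± SD beside each group of 3. MCM7 is the most abundant and MCM6 the least, and only for MCM6 do the groups overlap.

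Of the 10 genes of helicase activation, 4 were higher and 1 was lower with an unadjusted p under 0.05 (10.3% and 9.27% of all tested genes). CDC45 and the 4 GINS genes, whose products ride on the MCM ring, had positive log2 fold changes in the main comparison and in all 15 alternatives. GINS4 was at 24.2, 26.4 and 26.9 CPM in GPT2sinc 1 to 3 and 35.3, 34.4 and 32.7 CPM in GPT2si 1 to 3 (0.40, SE 0.10; adjusted p = 0.0792, edgeR), and its groups stood well apart. GINS2 was at 31.9, 33.8 and 39.8 CPM in GPT2sinc 1 to 3 and 44.2, 58.1 and 42.1 CPM in GPT2si 1 to 3 (0.45, SE 0.14). CDC45 was at 27.3, 30.7 and 30.1 CPM in GPT2sinc 1 to 3 and 35.5, 37.9 and 33.9 CPM in GPT2si 1 to 3 (0.29, SE 0.10). In all 3 the GPT2si libraries were higher without overlap, and for GINS2 the gap between GPT2sinc 3 and GPT2si 3 was narrow. Without GPT2si 2, GINS2 was at 0.28, and without both GPT2si 2 and GPT2sinc 1 at 0.22. GINS1 and GINS3 lay at 0.21 and 0.31 (SE 0.11 and 0.16) without overlap between the groups. MCM10, which helps the loaded helicase to open, was at 19.9, 22.5 and 20.8 CPM in GPT2sinc 1 to 3 and 28.1, 21.5 and 27.9 CPM in GPT2si 1 to 3 (0.30, SE 0.13); here GPT2si 2 fell among the GPT2sinc libraries, and without it MCM10 passed at 0.40 (adjusted p = 0.0351, edgeR).

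TICRR (ENSG00000140534; chromosome 15, 89575482 to 89631056, plus strand), known as treslin, brings CDC45 to the helicase together with TOPBP1. It was at 75.7, 73.0 and 70.3 CPM in GPT2sinc 1 to 3 and 60.5, 55.1 and 57.1 CPM in GPT2si 1 to 3, lower in all 3 GPT2si libraries. Its log2 fold change was −0.34 (SE 0.09, 95% interval −0.54 to −0.15; adjusted p = 0.0846, edgeR), and it lay between −0.39 and −0.29 in all 15 alternatives. TICRR overlaps the opposite-strand gene KIF7 over 589 exonic bases, with the same doubt about strand. TOPBP1 was at 27.6, 23.8 and 22.5 CPM in GPT2sinc 1 to 3 and 21.1, 14.9 and 27.6 CPM in GPT2si 1 to 3 (−0.22, SE 0.20). GPT2si 2 was far below the rest and GPT2si 3 level with the highest GPT2sinc library, and without GPT2sinc 1 and GPT2si 2 the log2 fold change was 0.063. DBF4 and CDC7, the regulatory and catalytic parts of the kinase that fires origins, lay at −0.15 and −0.06 (SE 0.21 and 0.20), and without GPT2sinc 1 and GPT2si 2 at 0.06 and 0.17.

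Of the polymerase alpha and primase genes, which start new strands, 0 of 4 were at an unadjusted p under 0.05. Of all tested genes, 10.3% were higher and 9.27% lower at that p. POLA2, the accessory subunit of polymerase alpha, was at 45.0, 57.8 and 60.4 CPM in GPT2sinc 1 to 3 and 65.8, 75.5 and 50.9 CPM in GPT2si 1 to 3 (0.23, SE 0.16), with overlapping groups; it shares 2012 exonic bases with AP000944.2 on the same strand. PRIM2, the large primase subunit, was at 22.1, 23.6 and 23.0 CPM in GPT2sinc 1 to 3 and 28.0, 21.6 and 26.8 CPM in GPT2si 1 to 3 (0.15, SE 0.12), with GPT2si 2 below all GPT2sinc libraries. POLA1 and PRIM1 lay at 0.13 and −0.05 (SE 0.16 and 0.12).

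POLE3 (ENSG00000148229; chromosome 9, 113407235 to 113410672, minus strand), a histone-fold subunit of the leading-strand polymerase epsilon that also belongs to a chromatin remodelling complex, was the member that rose. It was at 57.1, 69.4 and 72.2 CPM in GPT2sinc 1 to 3 and 97.5, 101 and 88.9 CPM in GPT2si 1 to 3. The lowest GPT2si library lay above the highest GPT2sinc library, and GPT2sinc 1 was lowest of all. The mean was 95.9 ± 6.32 against 66.2 ± 8.02 CPM (SD, n = 3 each), with a log2 fold change of 0.53 (SE 0.11, 95% interval 0.29 to 0.78) and an adjusted p of 0.0493 by edgeR, just inside the threshold. The call was lost with DESeq2 size factors (adjusted p = 0.0564), upper-quartile factors (0.0503) and limma-voom (0.0540), without the low-count filter (0.117), and without each of 5 libraries: GPT2sinc 1 (0.234), GPT2sinc 2 (0.190), GPT2sinc 3 (0.123), GPT2si 1 (0.187) and GPT2si 3 (0.0549). Few genes passed in those fits: 0% to 0.293% of all genes were called higher without 1 of these 5 libraries, and 0.0595% without the low-count filter. The log2 fold change of POLE3 stayed between 0.39 and 0.60 in all 15 alternatives. POLE3 shares 104 exonic bases with C9orf43 on the opposite strand.

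POLE, the catalytic subunit, was at 154, 174 and 173 CPM in GPT2sinc 1 to 3 and 201, 242 and 194 CPM in GPT2si 1 to 3 (0.35, SE 0.10; adjusted p = 0.121, edgeR), also without overlap; without GPT2si 2 it was at 0.23, and without both that library and GPT2sinc 1 at 0.18. POLE2 lay at 0.22 (SE 0.16). The polymerase delta genes, for the lagging strand, stayed close to 0, from −0.03 for POLD4 to 0.11 for POLD1. The most abundant of them, POLD2, was at 188, 209 and 227 CPM in GPT2sinc 1 to 3 and 201, 261 and 192 CPM in GPT2si 1 to 3 (0.07, SE 0.13), with GPT2si 2 highest and the other GPT2si libraries within the GPT2sinc range.

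PCNA (ENSG00000132646; chromosome 20, 5114953 to 5126626, minus strand), the sliding clamp, was at 116, 132 and 128 CPM in GPT2sinc 1 to 3 and 161, 152 and 159 CPM in GPT2si 1 to 3. The groups were well apart and the GPT2si libraries close together (0.33, SE 0.08, 95% interval 0.15 to 0.51; adjusted p = 0.0826, edgeR). PCNA gives its name to 3 annotated pseudogenes, and the sources used here do not say how shared reads were counted. Of the 5 genes of the clamp loader RFC, only RFC2 was at an unadjusted p under 0.05 (10.3% of all tested genes higher, 9.27% lower). RFC2 was at 62.3, 69.0 and 70.1 CPM in GPT2sinc 1 to 3 and 76.5, 87.3 and 74.0 CPM in GPT2si 1 to 3 (0.24, SE 0.10). RFC1, RFC3, RFC4 and RFC5 lay between −0.18 and 0.05. Per kilobase of transcript PCNA was at 104 CPM and RFC2 at 43.2, above RFC5 at 18.5, RFC4 at 12.3, RFC3 at 8.46 and RFC1 at 6.99, and only RFC3 and RFC1 overlapped between libraries.

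On the lagging strand, FEN1 (ENSG00000168496; chromosome 11, 61792637 to 61797244, plus strand), the flap endonuclease that trims Okazaki fragments, was at 62.4, 72.5 and 73.0 CPM in GPT2sinc 1 to 3 and 99.7, 98.7 and 87.5 CPM in GPT2si 1 to 3. All GPT2si libraries were higher (0.46, SE 0.10; adjusted p = 0.0592, edgeR). It lies in a crowded locus, with 166 exonic bases shared with TMEM258 on the opposite strand and 49 with FADS2 on its own. LIG1, the ligase that acts after FEN1, lay at −0.04 (SE 0.10), with a 95% interval of −0.25 to 0.18, and DNA2 at −0.01 (SE 0.20). RPA2, a subunit of the single-strand binding complex, was at 68.5, 83.0 and 81.3 CPM in GPT2sinc 1 to 3 and 90.3, 101 and 85.1 CPM in GPT2si 1 to 3 (0.25, SE 0.11). RPA2 gives its name to 3 annotated pseudogenes. RPA1, the largest subunit of that complex, was at 233, 254 and 259.6 CPM in GPT2sinc 1 to 3 and 263, 259 and 251 CPM in GPT2si 1 to 3, with overlapping groups (0.05, SE 0.08, 95% interval −0.12 to 0.23), and RPA3 lay at 0.01 (SE 0.11).

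Of the fork protection genes, 0 of 4 were at an unadjusted p under 0.05, where 10.3% of all tested genes were higher and 9.27% lower. TIMELESS was at 139, 159.8 and 156 CPM in GPT2sinc 1 to 3 and 150.3, 176 and 148 CPM in GPT2si 1 to 3 (0.06, SE 0.10). Its partner TIPIN was at 5.73, 6.31 and 5.86 CPM in GPT2sinc 1 to 3 and 6.68, 5.34 and 8.49 CPM in GPT2si 1 to 3 (0.20, SE 0.18). TIPIN shares 579 exonic bases with the processed pseudogene RPL9P25 on the same strand. WDHD1, which ties the helicase to polymerase alpha, was at 10.4, 9.79 and 7.31 CPM in GPT2sinc 1 to 3 and 8.15, 5.29 and 9.29 CPM in GPT2si 1 to 3 (−0.27, SE 0.22). CLSPN, which encodes claspin, was at 10.5, 9.13 and 12.2 CPM in GPT2sinc 1 to 3 and 12.4, 8.06 and 12.6 CPM in GPT2si 1 to 3 (0.06, SE 0.19). For TIPIN, WDHD1 and CLSPN the GPT2si group was spread widely, with GPT2si 2 below every other library of the 6.

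All 4 genes of chromatin assembly and turnover had positive log2 fold changes, also in all 15 alternatives. UHRF1, which reads hemimethylated DNA behind the fork, was at 90.6, 107 and 99.6 CPM in GPT2sinc 1 to 3 and 119, 125 and 115 CPM in GPT2si 1 to 3 (0.27, SE 0.09; adjusted p = 0.150, edgeR). CHAF1B, a subunit of the histone chaperone CAF-1, was at 31.3, 36.5 and 36.4 CPM in GPT2sinc 1 to 3 and 40.0, 47.1 and 37.8 CPM in GPT2si 1 to 3 (0.26, SE 0.12). Its partner CHAF1A lay at 0.21 and DTL, an adaptor of the ubiquitin ligase that degrades CDT1, at 0.15 (SE 0.10 and 0.09). UHRF1, CHAF1A and CHAF1B did not overlap between the groups, and DTL did. Without both GPT2si 2 and GPT2sinc 1, UHRF1 was at 0.17, DTL at 0.16, CHAF1B at 0.09 and CHAF1A at 0.08.

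The library GPT2si 2 had an opposite position in different members, and that position followed GC content. It was the highest library in 24 members and the lowest in 18, while GPT2sinc 1 was lowest in 32. Of all tested genes, 30.6% were highest and 33.7% lowest in GPT2si 2, and 27.1% were lowest in GPT2sinc 1. Of the 28 members with the higher GC content of their longest basic transcript, 45.9% to 65.0%, GPT2si 2 was highest in 23 and lowest in 1. Of the 28 members at 37.6% to 45.5%, it was highest in 1 and lowest in 17. Across the 56 members, the difference of GPT2si 2 from the mean of the other GPT2si libraries had a Pearson r of 0.82 with GC content (Spearman 0.87), against a Pearson r of 0.47 across 16825 tested genes with a GC value. The difference of GPT2sinc 1 from the other GPT2sinc libraries went the other way, at −0.49 across members and −0.19 across all genes. It was not alone in this: across members GPT2si 3 was at −0.75, GPT2si 1 at −0.61, GPT2sinc 2 at 0.05 and GPT2sinc 3 at 0.48, and each of these values uses the other libraries of the group, GPT2si 2 included. These correlations run across genes of the same libraries, which are not independent, and are descriptions; what sets this pattern was not tested.

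**Figure D4:**
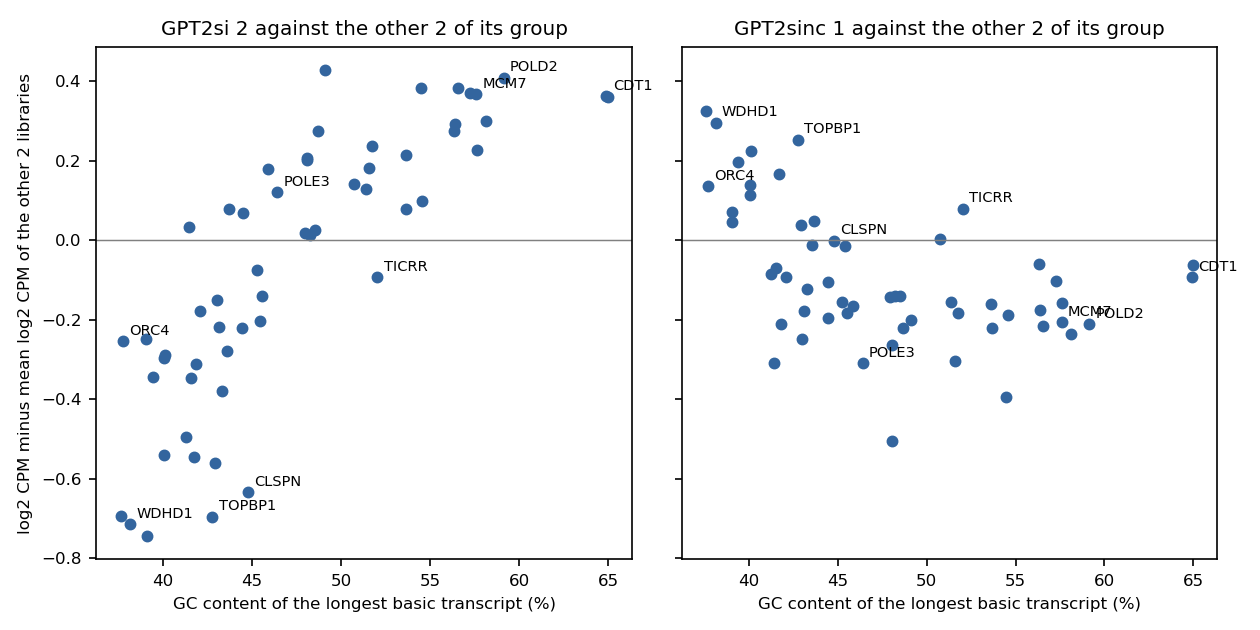
Difference in log2 CPM between a library and the mean of the other libraries of its group (y axis) against transcript GC content (x axis) for the 56 members, left for GPT2si 2 and right for GPT2sinc 1. In GPT2si 2 the points run from WDHD1 and TOPBP1 at low GC, far below 0, to CDT1 and POLD2 at high GC, above 0; in GPT2sinc 1 they run the other way.

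The same split was seen in the comparison of the groups. Of the 28 members with higher GC content, 14 had an unadjusted p under 0.05 and were higher, and 1 was lower, with a median log2 fold change of 0.24. Of the 28 with lower GC content, 3 were higher and 0 lower, with a median of 0.05. Of all tested genes of any GC content, 10.3% were higher and 9.27% lower at that p. Shares for genes of like GC content are not given here. With GPT2sinc 1 and GPT2si 2 left out the medians were 0.09 and 0.14, so the order of the sets turned. With offsets in edgeR for GC content and length of the transcript they were 0.25 and 0.18. In that fit 15 members passed as higher (8.61% of all genes) and TICRR as lower (4.51% of all genes), and the median over all members was 0.22, where the median over all genes was 0.04. CDC6, MCM2, MCM3, MCM4, MCM5, MCM7, MCM10, CDC45, GINS2, GINS4, POLE3, PCNA, RFC2, FEN1 and UHRF1 were the members higher there. POLE3, MCM7, PCNA, FEN1, GINS4 and CDC6 were called higher, and TICRR lower, in the same 4 of the 15 alternatives. These were DESeq2, the GC and length offsets, the fit without GPT2si 2, and the fit without both libraries. The last of these was added once the data had been seen. PCNA, GINS4, CDC6 and TICRR were called in no other alternative and not in the main comparison. MCM7 and FEN1 were called besides only with the replicate block. POLE3 was called besides with that block, with a stricter low-count filter and in the main comparison.

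**Figure D5:**
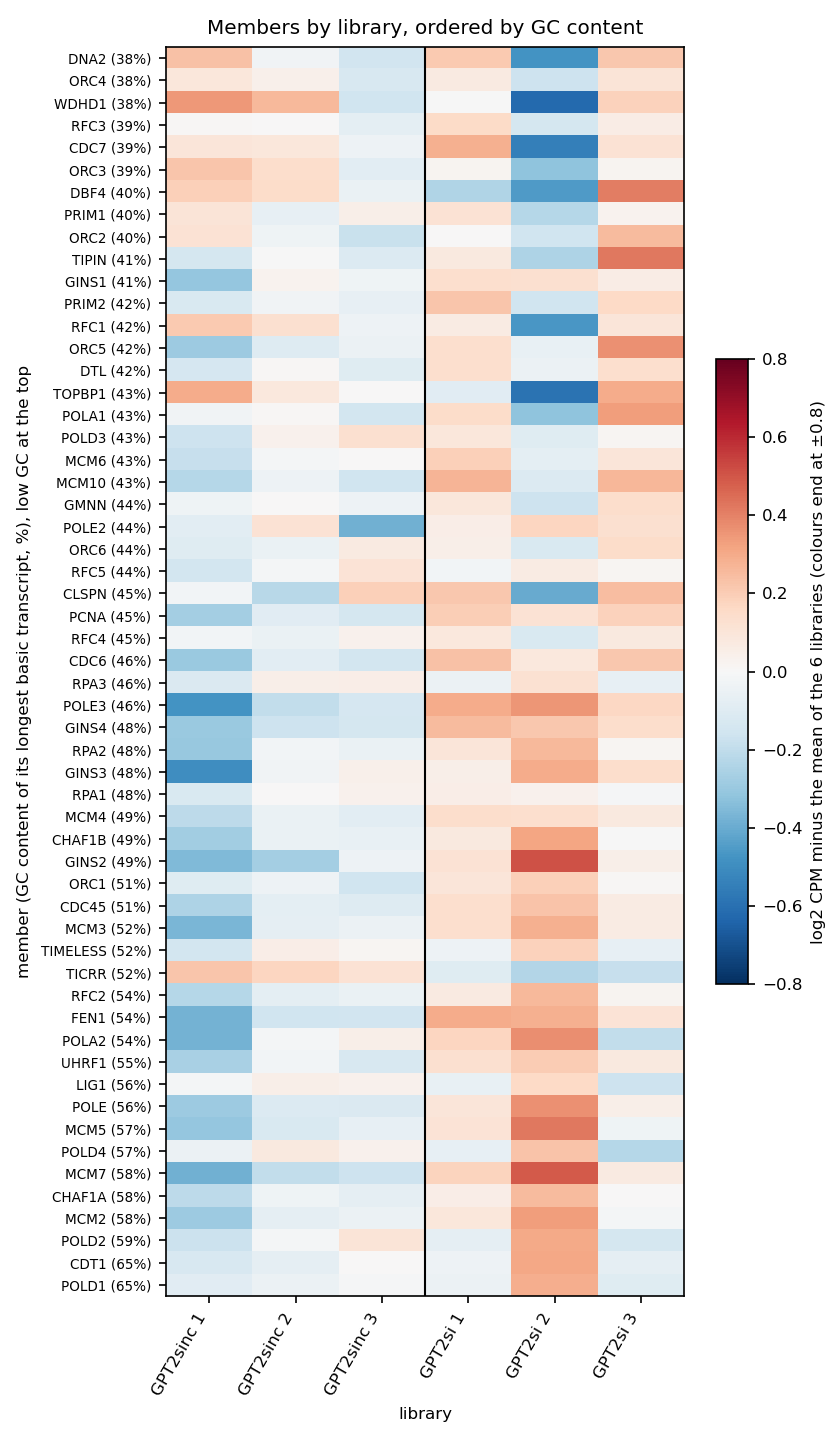
Log2 CPM of each member minus its mean over the 6 libraries (colour), with libraries in columns and members in rows from low GC content (top) to high (bottom). The GPT2si 2 column turns from blue at the top to red at the bottom, GPT2sinc 1 is mostly blue below the top rows, and the TICRR row is reversed.

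Another 70 genes of replication and S phase entry, in 4 lists also chosen with earlier results known, gave 0 calls in either direction by edgeR over all genes. Their median was 0.05, against −0.01 over all tested genes. Before adjustment, 11 were higher and 4 lower with p under 0.05, where 10.3% of all tested genes were higher and 9.27% lower. Of 28 further helicase and fork partners, 3 were higher and 2 lower at that p. The 3 with the smallest p were LRWD1, which binds ORC (0.43, SE 0.14), TONSL, which helps to mend broken forks (0.33, SE 0.12), and POLDIP3, which binds polymerase delta (0.28, SE 0.11). The 2 lower ones, named after their values were seen, were TOP2A, a topoisomerase (−0.50, SE 0.19), and ATAD5, which unloads PCNA (−0.76, SE 0.33). Their transcripts had 39.1% and 37.4% GC, and GPT2si 2 was the lowest library for both, at 66.9 and 1.10 CPM. ATAD5 was low, at 2.56 to 4.73 CPM with GPT2sinc and 1.10 to 2.63 CPM with GPT2si, and its groups overlapped. Of 11 fork checkpoint genes, 3 were higher and 1 lower. CDC25A, the phosphatase that activates CDK2 for S phase, was at 32.2, 36.8 and 37.1 CPM in GPT2sinc 1 to 3 and 46.1, 52.1 and 47.2 CPM in GPT2si 1 to 3 (0.45, SE 0.10; adjusted p = 0.0662, edgeR). RAD1, a subunit of the checkpoint clamp, lay at 0.37 (SE 0.12) and ETAA1, an activator of the checkpoint kinase ATR, at −0.66 (SE 0.26). ETAA1 was low, at 3.06 to 4.10 CPM with GPT2sinc and 1.73 to 3.14 CPM with GPT2si, and its groups overlapped.

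Of 20 S phase drivers and genes of nucleotide supply, 5 were higher and 1 was lower by that unadjusted measure (10.3% and 9.27% of all tested genes). E2F1, a transcription factor that drives genes of this kind, was at 23.2, 24.2 and 24.0 CPM in GPT2sinc 1 to 3 and 31.4, 37.4 and 29.04 CPM in GPT2si 1 to 3, without overlap (0.45, SE 0.12; adjusted p = 0.0867, edgeR). CCNE1, the cyclin partner of CDK2, was at 39.9, 42.1 and 43.9 CPM in GPT2sinc 1 to 3 and 52.0, 59.8 and 52.2 CPM in GPT2si 1 to 3, also without overlap (0.38, SE 0.10; adjusted p = 0.0888). DCTPP1, which cleans the nucleotide pool, lay at 0.50 (SE 0.14). The lower one, also named after its value was seen, was CDK1, the mitotic kinase (−0.33, SE 0.13). Its groups overlapped, and GPT2si 2 was its lowest library at 55.8 CPM. Of 11 genes of chromatin behind the fork, 0 were at that p in either direction; CDCA7, DNMT1 and ASF1B lay at 0.22, 0.17 and 0.15 (SE 0.10, 0.08 and 0.13). CDC25A, E2F1 and CCNE1 passed with DESeq2, with the GC and length offsets, without GPT2si 2 and without both GPT2si 2 and GPT2sinc 1, and with no other of the 15 alternatives. DCTPP1 passed with DESeq2, the replicate block, the GC and length offsets and without both libraries. CDCA7 and RAD1 passed with the offsets and without both libraries, LRWD1, TONSL and POLDIP3 with the offsets alone, and ETAA1, DNMT1 and ASF1B in none of the 15.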

How the data were processed

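Poly(A) RNA of A2780 cells was sequenced as strand-marked libraries, per the labels' protocols, and the authors deposited raw read counts per gene; the submitters' processing notes name CASAVA and StringTie, and the sources used here give no genome build, annotation or strand setting for the counting. From the counts, with R 4.3.3, genes were filtered with filterByExpr (17006 left), scaled by TMM factors and tested with edgeR 4.0.16 (quasi-likelihood F test, GPT2si against GPT2sinc, Benjamini-Hochberg over all tested genes, threshold 0.05). The script was tested on simulated data. It recovered 37.8% of 1.5-fold changes, 81.6% of 2-fold changes and 99.5% of 4-fold changes there. Of the calls in that simulation, 8.96% were false. The largest rise of a member, POLE3, was 1.45-fold. Intervals of a fold change use the SE and the degrees of freedom of that test. Alternatives were other scalings and filters, DESeq2 1.42.0, limma 3.58.1 (voom), a replicate block, loess offsets for GC content and transcript length (span 0.5), and leaving out libraries. Members were matched by identifier; lengths and GC content come from GENCODE 29 (GRCh38), and 58457 of the 60564 rows matched it. Values of every library are given, in each role group, for members past the test, the 2 smallest p and the highest mean CPM; MCM2, MCM4, MCM5, GINS2, CDC45, MCM10, TOPBP1 and CLSPN were added after their values were seen. Of the other lists the 3 smallest p of each are named. The members and lists were chosen with earlier results of these data known. Libraries of 41931162 to 50882329 counts make counting error small beside the spread between libraries for most members. No pair of libraries agreed within counting noise, so all were kept. Protein sequences were not analysed here. The result of 1 immune marker gene is not reported here.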

Additional observations from a re-analysis of the deposited data

How the results depend on the processing

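The number of members called depended on the processing, with 1 higher and 0 lower as reported. With DESeq2 size factors, upper-quartile factors, no low-count filter and limma-voom, 0 were higher. Those fits called 0.0595% to 0.441% of all genes higher. With DESeq2 6 were higher and 1 lower, and with GC and length offsets 15 higher and 1 lower. Without 1 library, 0 to 7 were higher and 0 to 1 lower. Of all genes, the fits without 1 library called 0% to 2.15% higher and 0.00573% to 2.62% lower. Without GPT2sinc 1 and GPT2si 2 together, chosen after seeing the data, 7 were higher and 1 lower, and 4 members were lower at an unadjusted p under 0.05, with 36 higher and 6 lower without overlap; of all genes in that fit, 12.1% were lower at that p, and 28.5% higher and 25.7% lower without overlap. Whether numbers shared between the groups pair the libraries was not settled. Same-numbered libraries deviated with r of 0.09, 0.11 and −0.19 and other pairs with −0.27 to 0.25. Not every library correlated best with its own number, but with 3 libraries per group such values cannot exclude pairing. The fit with a replicate block called 3 members higher and 0 lower (POLE3, MCM7 and FEN1), where it called 1.48% of all genes higher and 1.80% lower. Members at an unadjusted p under 0.05 numbered 29 higher with GC and length offsets and 8 to 20 higher and 1 to 3 lower without 1 library, and members without overlap 21 to 33 higher and 1 to 4 lower. Over all genes, the fits without 1 library had 5.28% to 11.2% higher and 5.85% to 11.7% lower at that p, and 17.0% to 21.1% higher and 16.5% to 21.5% lower without overlap; the fit with offsets had 19.4% higher at that p. The median fold change of 0.14 was 0.22 with those offsets, where the median of all genes moved from −0.01 to 0.04 and calls over all genes from 98 higher and 143 lower to 1449 and 758; upper-quartile factors gave 75 and 167. Without both libraries, 16 of the 56 members changed sign. Among members with values of every library these were CDT1 (−0.029), POLA2 (−0.025), POLD2 (−0.16), RPA1 (−0.0062), TIMELESS (−0.092), TOPBP1 (0.063) and WDHD1 (0.018). Of the genes named from the other lists, ASF1B (−0.082) changed sign there too. Of the same genes, without 1 library, signs also turned within the ranges of ASF1B (−0.0030 to 0.24), CDT1 (−0.0048 to 0.21), CLSPN (−0.048 to 0.23), POLD2 (−0.095 to 0.15) and TIMELESS (−0.040 to 0.10). Over all members and alternatives, 26 of 56 changed sign in at least 1 alternative. The cause of these changes was not tested.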
